A study of Homo sapiens with 18 samples.

Results

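The comparison is between cells that held both fusion products of the t(4;11) translocation and cells that held AF4-MLL alone, on day 3, when the induction of AF4-MLL ended. It used 6 of the 18 ATAC-seq libraries of the series, 3 of co-expression cells and 3 of AF4-MLL cells, chosen by their labels for construct and day. All cells were HEK293T, a human embryonic kidney line. AF4-MLL cells carried an AF4-MLL construct that doxycycline switches on. Co-expression cells carried the same inducible construct and, in addition, an MLL-AF4 construct that is always on. MLL-AF4 cells, used here for reference, carried an inducible MLL-AF4 construct and not the constitutive one, so they are not the parent of the co-expression cells. Doxycycline was given at 1 µg/ml for 48 h in all settings and was then withdrawn. All constructs were in Sleeping Beauty vectors. By the study's methods, the co-expression cells came from a stable line with constitutive MLL-AF4, selected with puromycin and grown for weeks, into which the AF4-MLL plasmid was transfected transiently and from which it was later lost without selection. The labels call all the cells stably transfected, and how the cells with a single inducible construct were selected is not given in the sources used here. The presence of MLL-AF4 and the separate history of the cells cannot be told apart. The labels number 3 biological replicates per group without saying that they were separate cultures, and the p-values measure only the spread between these libraries.

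The translocation t(4;11) joins MLL (gene KMT2A, chromosome 11), a histone H3 lysine 4 methyltransferase, with AF4 (gene AFF1, chromosome 4), a scaffold of the super elongation complex that releases paused RNA polymerase II. It yields MLL-AF4, which keeps the DNA binding part of MLL, and the reciprocal AF4-MLL, which keeps the methyltransferase part. In ATAC-seq a transposase inserts adapters where DNA is open, so the reads assigned to a gene measure how accessible its DNA was and not how much RNA it made.

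On day 3, 226 of 17660 tested genes (1.28%) differed between the settings in edgeR's quasi-likelihood test at a Benjamini-Hochberg adjusted p-value under 0.05, and a gene is called here when it passed that threshold. Of these, 85 genes (0.481%) were higher and 141 (0.798%) were lower in co-expression cells. The median log2 difference of the called genes was 0.88 among the higher and -0.97 among the lower, and the smallest called difference was 0.40 in size. Only 22 genes rose by more than 1 on the log2 scale and 66 fell by more than 1. The libraries of one group all lay above those of the other for 214 of the 226 and for 16.5% of all tested genes. The 226 were called from these same libraries, so their separation follows in large part from the call. It is not added evidence for the calls.

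The deposited totals ran from 442159 to 1323431 counts in AF4-MLL cells, with replicate 2 the lowest, and from 930067 to 1186209 in co-expression cells. Genes outside the mitochondrial chromosome received 297567 to 791448 and 591071 to 662727 counts, and the median count over the tested genes was 22. Mitochondrial genes took 38.3% ± 4.95 (SD, n = 3) of the counts of AF4-MLL cells and 39.4% ± 5.94 of those of co-expression cells (exact two-sided permutation test, p = 0.7, the smallest possible being 0.1). A gene that was not called at these depths is not shown to be unchanged. Genes that mark kidney epithelium and genes that mark blood cells had summed levels whose groups overlapped, 146.1 to 150.3 against 133.2 to 151.4 CPM (reads scaled to a common library total) for kidney and 93.71 to 118.7 against 93.22 to 107.3 CPM for blood. Of those lists, 9 of 12 kidney and 8 of 15 blood genes could be tested and 0 were called in either.

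The 4 upstream sequences that follow belong to called genes of different kinds. KMT2A supplies the MLL part of both fusions. DNAJB6, a co-chaperone of the HSP40 family, rose and KMT2A fell in every setting tried with the adjusted threshold. CRELD2, a resident protein of the endoplasmic reticulum (ER), and SLITRK1, a neuronal membrane protein, were among the 12 lower genes with the smallest p-values. The bases are those before the RefSeq start on the gene's own strand (build GRCh38.p14), cut where they would enter another gene, and capitals mark an ER stress response element (ERSE), which lies on the opposite strand.
KMT2A, chr11:118436242-118436491, plus strand: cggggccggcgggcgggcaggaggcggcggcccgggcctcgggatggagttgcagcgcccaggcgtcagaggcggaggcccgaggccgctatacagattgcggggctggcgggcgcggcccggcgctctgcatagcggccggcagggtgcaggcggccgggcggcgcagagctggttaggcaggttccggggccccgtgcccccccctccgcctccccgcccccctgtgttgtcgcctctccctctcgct
DNAJB6, chr7:157336754-157337003, plus strand: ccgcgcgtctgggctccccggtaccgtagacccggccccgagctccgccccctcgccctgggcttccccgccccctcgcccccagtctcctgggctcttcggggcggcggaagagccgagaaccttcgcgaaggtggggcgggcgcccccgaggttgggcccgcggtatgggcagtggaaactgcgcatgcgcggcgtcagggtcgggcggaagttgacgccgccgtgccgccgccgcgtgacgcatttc
CRELD2, chr22:49918439-49918633, plus strand: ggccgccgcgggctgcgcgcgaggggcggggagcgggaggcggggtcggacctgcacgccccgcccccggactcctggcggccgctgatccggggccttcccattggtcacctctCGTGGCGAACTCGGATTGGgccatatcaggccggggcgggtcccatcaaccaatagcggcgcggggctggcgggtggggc
SLITRK1, chr13:83882475-83882724, minus strand: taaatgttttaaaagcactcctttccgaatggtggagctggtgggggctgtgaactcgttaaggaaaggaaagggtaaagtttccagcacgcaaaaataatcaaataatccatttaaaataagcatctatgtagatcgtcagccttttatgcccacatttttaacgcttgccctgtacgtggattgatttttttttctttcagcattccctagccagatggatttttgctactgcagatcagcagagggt
The stretches before KMT2A, DNAJB6 and CRELD2 had a GC content of 78.4%, 75.2% and 76.4% and held 31, 36 and 25 CpG, whereas the stretch before SLITRK1 had 40.4% GC and 6 CpG. The ERSE was searched as CCAAT, 9 bases of any kind and CCACG, on both strands, in the 250 bases before the start. It occurred in 26 of 35116 RefSeq promoters (0.074%). Of the 17 such genes that could be tested, 2 were called, CRELD2 and ALG12, against 1.28% of all tested genes. They are transcribed away from each other, share this single site and lie in 1 lower block, so they are not separate cases.

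KMT2A was followed because the constructs carry parts of it. Its levels were 83.3, 108 and 97.9 CPM in the 3 AF4-MLL libraries and 47.3, 53.7 and 57.4 CPM in the 3 co-expression libraries. All 3 co-expression libraries lay below the lowest AF4-MLL library. The gene fell by 0.83 ± 0.14 (log2, SE; edgeR adjusted p = 9.06e-06), and MLL-AF4 cells on the same day were lower still, at 35.75 ± 6.94 CPM (SD, n = 3). AF4-MLL cells exceeded MLL-AF4 cells by 1.39 on the log2 scale (edgeR adjusted p = 1.71e-10), and the excess of co-expression cells over MLL-AF4 cells, 0.56, missed the threshold (adjusted p = 0.0876) in a contrast that called 319 of 17660 genes (1.81%). The log2 differences of the genes beside KMT2A were 0.12 for ATP5MG and -0.15 for TTC36. AFF1, the other fused gene, had 65.8, 63.6 and 59.3 CPM in AF4-MLL cells against 54.7, 47 and 56.7 CPM, a log2 difference of -0.25 ± 0.15 that was not called (adjusted p = 0.49). Both constructs carry parts of KMT2A and AFF1, and the counts do not separate the native genes from construct sequence. These levels are therefore not a check on the constructs.

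**Figure D1:**
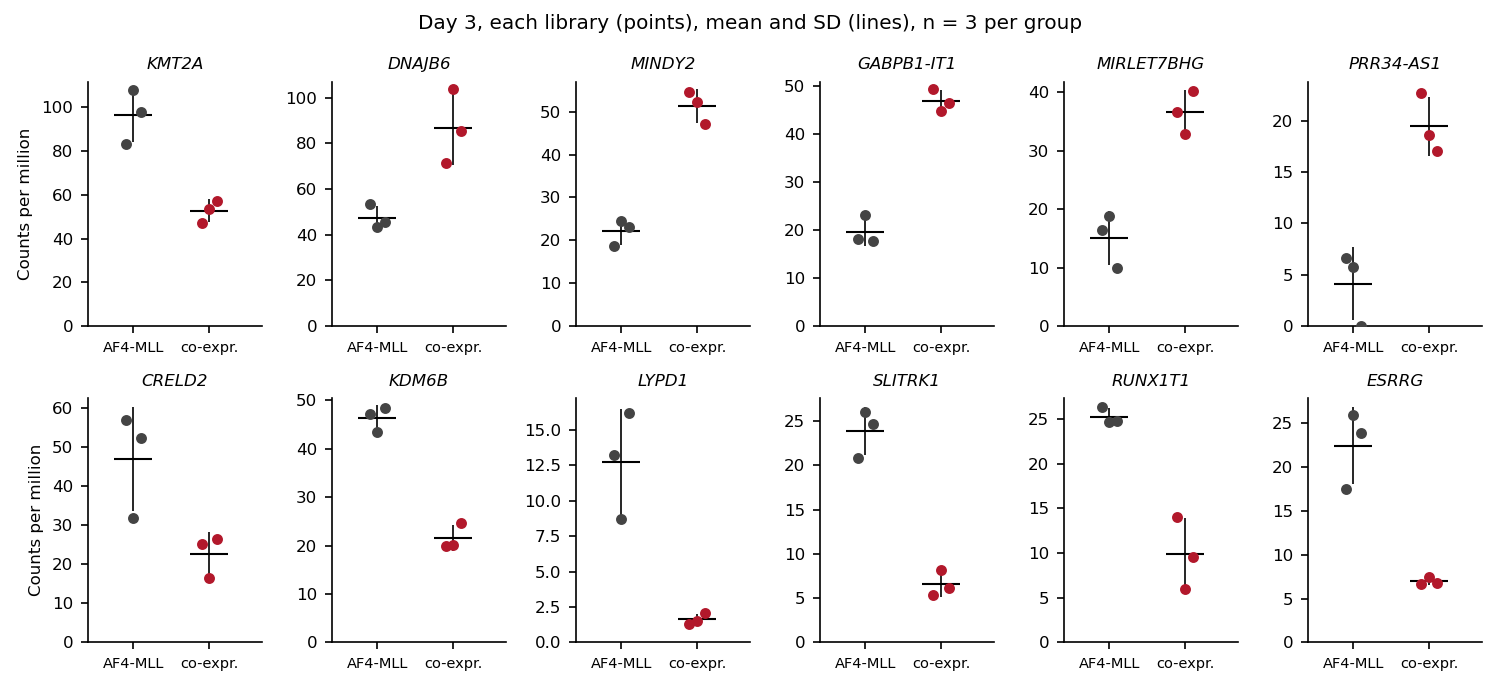
Level of 12 genes (CPM, vertical axis) in the libraries of the comparison, with points for libraries, a line for the mean and a bar for the SD (n = 3). KMT2A ran from 83.3 to 108 CPM in AF4-MLL cells and from 47.3 to 57.4 CPM in co-expression cells, and LYPD1 from 8.68 to 16.2 CPM and from 1.33 to 2.05 CPM. All but LYPD1 were chosen in part because the groups do not overlap.

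Many called genes lay side by side. The tested genes that RefSeq places on a chromosome, 15478 in all, were taken in order in blocks of 50, and the counts of each block were summed and tested in the same way. Of 309 blocks, 86 (27.8%) were called, 57 higher and 29 lower in co-expression cells. Most of these differences were small, and 20 blocks differed by more than 0.3 on the log2 scale, 6 higher and 14 lower. Those 20 blocks held 974 of the positioned genes (6.29%) and 104 of the 204 positioned calls (51%). Called genes counted in the stretches below are likewise to be read beside the 1.28% called over all tested genes. Each of the 20 stayed called when any 1 of the 6 libraries was left out, and 18 stayed called when libraries were scaled by their totals alone. Chromosome copy number was not measured, and a difference in copy number and a difference in accessibility over a whole stretch cannot be told apart in these counts.

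**Figure D2:**
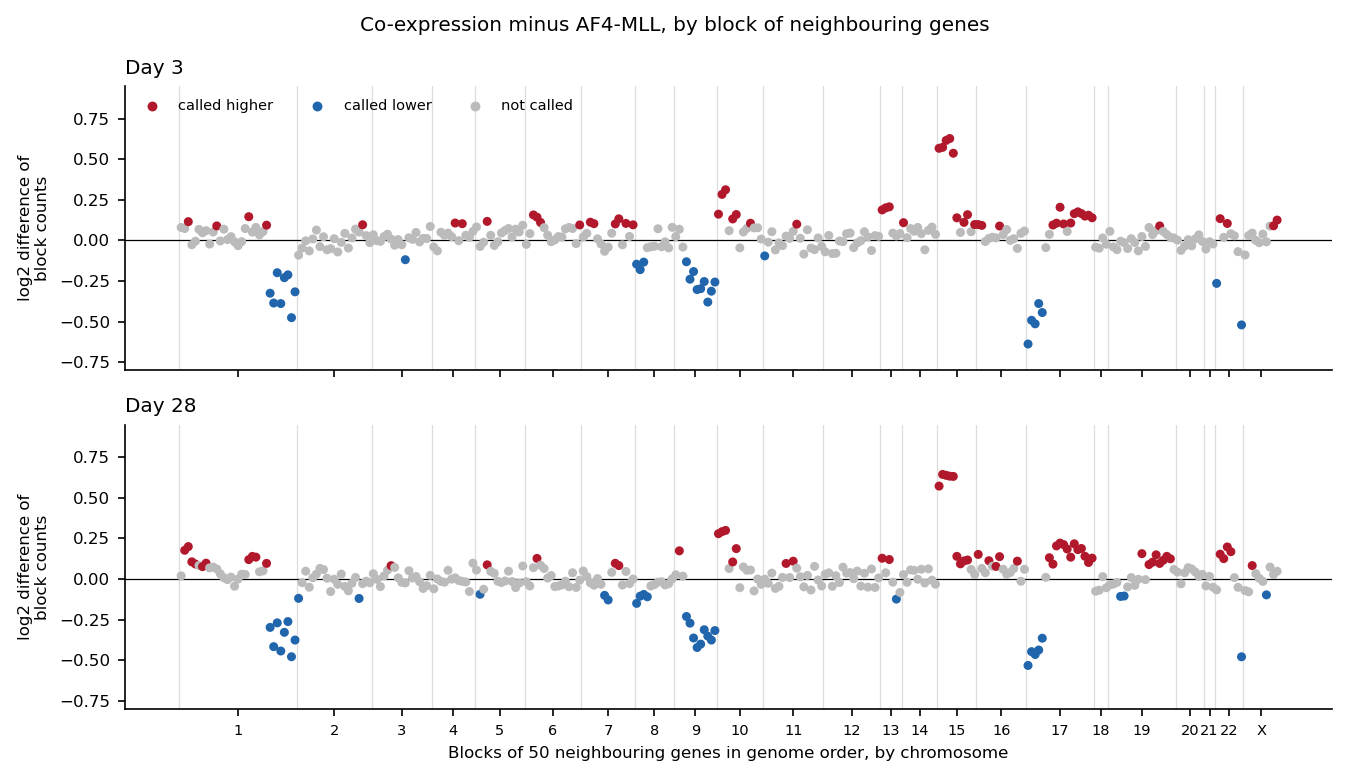
Log2 difference of co-expression over AF4-MLL cells (vertical axis) for 309 blocks of 50 neighbouring genes in genome order (horizontal axis, by chromosome), on day 3 above and day 28 below, with red for blocks called higher, blue for blocks called lower and grey for the rest. Parts of chromosomes 1, 9 and 17 lie below 0 and part of chromosome 15 lies above it on both days.

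The largest rise was on chromosome 15, between HERC2P2 and KIF23 (22.5 to 69.4 Mb). Relative to the mean of the AF4-MLL libraries, this stretch held 98.88%, 98.26% and 102.9% of its counts in the AF4-MLL libraries and 138.4%, 144.2% and 137.4% in the co-expression libraries. The co-expression libraries were thus clearly apart, and 272 of the 300 tested genes in the stretch (90.7%) had a positive difference. Its 6 blocks rose by 0.14 to 0.63 on the log2 scale and held 37 called genes. MLL-AF4 libraries lay at 90.87%, 93.11% and 95.99%, on the side of AF4-MLL cells. Taken whole, the share of counts on chromosome 15 rose by 0.25 ± 0.0241 (log2, SE; limma adjusted p = 4.75e-08), 1 of 3 chromosomes called among 23 (13%).

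By p-value, MINDY2 and GABPB1-IT1 of this stretch came first among the called rises, although other rises were larger. MINDY2 (chr15:58771302-58861900), a deubiquitinase, had 18.6, 24.6 and 23.1 CPM in AF4-MLL cells and 54.7, 52.2 and 47.1 CPM in co-expression cells, a rise of 1.27 ± 0.19 (edgeR adjusted p = 1.45e-06). GABPB1-IT1, a transcript from an intron of the gene for a subunit of the transcription factor GABP, rose by 1.31 ± 0.20 (adjusted p = 1.45e-06), from 18.1, 23.1 and 17.7 CPM to 49.3, 44.7 and 46.5 CPM. In both genes the lowest co-expression library was over the highest AF4-MLL library by a wide margin. NUSAP1, a spindle protein, rose from 15.9, 10.1 and 17.7 CPM to 38.7, 35.8 and 34.2 CPM (log2 1.23, adjusted p = 8.8e-05). DUT, which removes dUTP before it reaches DNA, rose from 24.7, 26 and 17.7 CPM to 46.7, 42.5 and 42.4 CPM (log2 0.96, adjusted p = 0.000638). B2M, the light chain of MHC class I molecules, rose by 1.04 ± 0.25 (adjusted p = 0.0106), but its call was lost without any 1 of 4 libraries, with an adjusted p of 0.11 without AF4-MLL replicate 1. KATNBL1 rose by 1.41 (adjusted p = 0.000139) and likewise passed the threshold no longer without that library (adjusted p = 0.0599), whereas MINDY2, NUSAP1 and DUT stayed called without any 1 library. SERF2 rose by 0.81 (adjusted p = 7.38e-05) and GALK2, a kinase of N-acetylgalactosamine, by 0.82 (adjusted p = 0.000474), and both were also called without any 1 library.

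The largest fall was at the start of chromosome 17, from DOC2B to SPECC1 (0.143 to 20.3 Mb). AF4-MLL libraries lay at 98.3%, 99.76% and 101.9% of their mean there and co-expression libraries at 70.86%, 71.73% and 71.16%. The spread within each group was a small part of the gap, and 233 of 250 tested genes (93.2%) were lower. The 5 blocks of the stretch fell by 0.39 to 0.64 on the log2 scale and held 31 called genes. MLL-AF4 libraries lay between the others, at 88.88%, 90.54% and 90.72%. KDM6B, a demethylase that removes the repressive mark on histone H3 lysine 27, fell from 47.1, 43.4 and 48.5 CPM to 20, 20.1 and 24.6 CPM (log2 -1.11 ± 0.19, edgeR adjusted p = 1.06e-05). WDR81 fell by 0.93 (adjusted p = 0.000293) and INPP5K, a phosphoinositide phosphatase, by 0.91 (adjusted p = 0.000511), the latter with an adjusted p of 0.0528 without AF4-MLL replicate 3. The U3 small nucleolar RNAs, which guide processing of ribosomal RNA precursors, lie here too, and SNORD3B-1 fell from 140, 133 and 145 CPM to 80.7, 101 and 88.8 CPM (log2 -0.64 ± 0.12, adjusted p = 0.00013). SNORD3C and SNORD3A, near-identical copies whose reads may be shared among them, fell by 0.49 and 0.42 (adjusted p = 0.103 without co-expression replicate 1 and 0.19 without co-expression replicate 3), so that 3 of the 5 tested small nucleolar RNAs were called, against 1.28% of all tested genes. These 3 are copies in 1 lower stretch, and without 1 library SNORD3C was called in 2 and SNORD3A in 1 of 6 fits. Relative to its neighbours SNORD3A turned to 0.025.

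The last part of chromosome 1, from ABL2 to PGBD2 (179 to 249 Mb), was also lower. AF4-MLL libraries lay at 99.68%, 100.6% and 99.67% and co-expression libraries at 80.48%, 79.55% and 81.34%. Of 382 tested genes 327 (85.6%) were lower, and 29 were called. MLL-AF4 libraries lay at 102.6%, 104.8% and 101.7%, and all 8 blocks were called in co-expression against MLL-AF4 cells too, as were the 6 on chromosome 15 and the 5 on chromosome 17. TRIM67, of a family of ubiquitin ligases, fell by 1.01 (edgeR adjusted p = 0.000202), and ASCL5, a basic helix-loop-helix factor, by 1.09 (adjusted p = 0.000638). ESRRG, an orphan nuclear receptor, fell from 17.5, 26 and 23.9 CPM to 6.67, 7.46 and 6.83 CPM, a log2 difference of -1.60 ± 0.30 (adjusted p = 0.000152) that went well past the fall of its block, -0.39.

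On chromosomes 9 and 10 the libraries of co-expression and MLL-AF4 cells lay closer to each other. From CNTNAP3 to FAM157B on chromosome 9 (39.1 to 138 Mb), co-expression libraries lay at 85.14%, 82.67% and 82.02% of the AF4-MLL mean and MLL-AF4 libraries at 85.85%, 86.36% and 85.53%. AF4-MLL libraries themselves ran from 98.62% to 101.1%, and 14 of the 463 genes of the stretch were called, all lower in co-expression cells. From ZMYND11 to ZNF487 on chromosome 10 (0.13 to 43.5 Mb), co-expression libraries lay at 119.9%, 114.7% and 120.2% and MLL-AF4 libraries at 119.1%, 120.4% and 119.8%. AF4-MLL against MLL-AF4 cells called 7 of the 9 blocks on chromosome 9 and 3 of 3 on chromosome 10, and co-expression against MLL-AF4 cells called 4 and 1. Only 1 gene of the chromosome 10 stretch, SKIDA1, was called (adjusted p = 0.155 without AF4-MLL replicate 3), although 120 of its 150 genes (80%) were higher. SKIDA1 was called in 2 of the 6 fits that each left out 1 library. The whole-chromosome shares moved by -0.21 ± 0.023 for chromosome 9 (limma adjusted p = 2.43e-07) and by 0.09 ± 0.0245 for chromosome 10 (adjusted p = 0.00957). Near the end of chromosome 22, from PPARA to RABL2B, the block fell by 0.52 ± 0.045, with 38 of its 42 genes lower and 8 called.

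**Figure D3:**
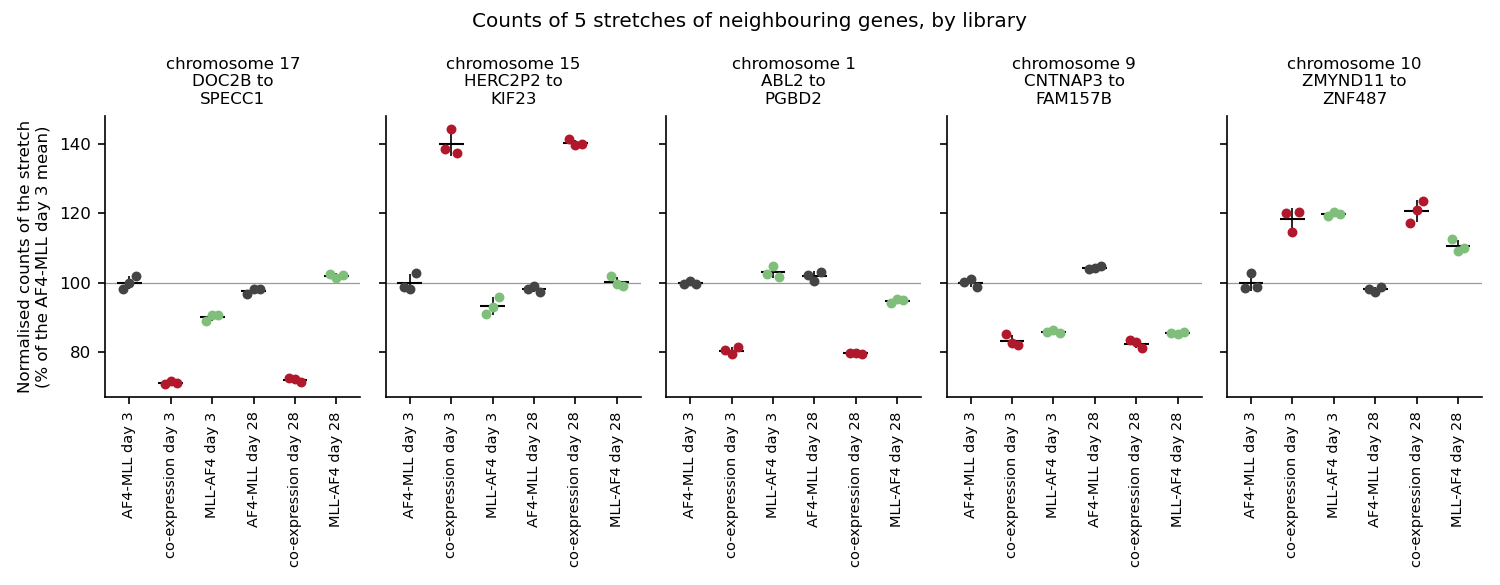
Counts in 5 stretches of neighbouring genes as a percentage of the mean of the AF4-MLL day 3 libraries (vertical axis), with points for libraries, a line for the mean and a bar for the SD (n = 3). On chromosome 15 the co-expression libraries of day 3 lie between 137.4% and 144.2%, and on chromosome 17 between 70.86% and 71.73%.

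CRELD2 (chr22:49918634-49927537), whose upstream bases are shown above, lay in that last block. It had 57, 31.8 and 52.4 CPM in AF4-MLL cells and 25.3, 16.4 and 26.6 CPM in co-expression cells. The highest co-expression library was below the lowest AF4-MLL library, and the gene fell by 1.13 ± 0.18 (edgeR adjusted p = 9.06e-06). ALG12, a mannosyltransferase of N-glycan assembly on the other side of the shared start region, fell by 0.97 ± 0.27 (adjusted p = 0.0377), from 21.4, 23.1 and 20.8 CPM to 12, 10.4 and 10.2 CPM, and did not pass without any 1 of the 6 libraries (adjusted p up to 0.156, without co-expression replicate 3). PPP6R2, a regulatory subunit of protein phosphatase 6 from the same block, fell by 1.29 (adjusted p = 8.93e-05).

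To ask which genes moved beyond their surroundings, each gene in a block was scaled by the summed counts of the block's other genes and tested again. Genes without a RefSeq position had no block and entered this test unscaled. With this neighbourhood scaling 47 genes (0.266%) were called, 19 higher and 28 lower, of which 42 were among the 226. The 42 comprised 15 that rose and 27 that fell, and 34 of them had a position. The rest kept a call that no neighbours were set against. Of the 12 rises with the smallest p-values 5 kept the call and of the 12 falls 4 did. AC092718.7 and AC023908.3, among the 5 rises, had no position. MINDY2 (adjusted p = 0.0558), GABPB1-IT1 (0.0995), CRELD2 (0.124) and KDM6B (0.144) did not pass, so their differences were not shown to exceed those of their neighbours. KMT2A kept its fall of 0.83 (adjusted p = 3.51e-05) and DNAJB6 rose by 0.75 (adjusted p = 0.00112). Of the 34 kept genes with a position, 33 lay outside the 20 strongly shifted blocks, and ESRRG was the exception. This split follows in large part from the scaling, which takes the shift of a block out of each of its genes. It is not a result about where such genes lie.

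DNAJB6 (chr7:157337004-157417439) had 53.2, 43.4 and 45.5 CPM in AF4-MLL cells and 71.3, 104 and 85.4 CPM in co-expression cells. The groups did not overlap, which the rule for naming the gene required, and the gene rose by 0.83 ± 0.14 (edgeR adjusted p = 1.78e-05). MLL-AF4 cells, at 78.29 ± 14.7 CPM (SD, n = 3), were higher than AF4-MLL cells as well (AF4-MLL over MLL-AF4, log2 -0.68, adjusted p = 0.0342), and co-expression cells exceeded MLL-AF4 cells by 0.15. Some other kept rises, chosen after their values were seen, were smaller. They were TAF1D, a subunit of the RNA polymerase I initiation factor (log2 0.66), ATP5PB, a subunit of the mitochondrial ATP synthase (0.56), and EEF1A1, the translation elongation factor (0.45), whose many processed pseudogenes make its count uncertain. ATP5PB and EEF1A1 were not called without some libraries (adjusted p = 0.301 without AF4-MLL replicate 1 and 0.148 without AF4-MLL replicate 3), and TAF1D was called without any 1 of them.

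The sharpest fall at a protein coding gene was at LYPD1 (chr2:132643286-132671526), which encodes a membrane-anchored protein of the Ly6 family. It received 24, 6 and 21 counts in the AF4-MLL libraries and 2, 2 and 3 in the co-expression libraries, or 13.2, 8.68 and 16.2 against 1.33, 1.49 and 2.05 CPM. AF4-MLL replicate 2, the shallowest library, was the lowest of its group and still above every co-expression library. The gene fell by 2.96 ± 0.48 on the log2 scale (edgeR adjusted p = 9.06e-06). Summed over libraries, the 51 counts in AF4-MLL cells and the 7 in co-expression cells gave a ratio of 8.22 after scaling, with an exact 95% interval of 3.72 to 21.5 that covers counting error only. MLL-AF4 cells had a mean of 10.07 CPM. The genes beside it were looked up after its value was seen. GPR39, a zinc-sensing receptor, fell by 1.80 (adjusted p = 0.0264, and 0.25 without co-expression replicate 3) and NCKAP5-IT1 by 3.02 (adjusted p = 0.0102, and 0.085 without co-expression replicate 2), while NCKAP5, at -1.53, was not called (adjusted p = 0.0644). GPR39 and NCKAP5-IT1 were each called in 3 of the 6 fits that left out 1 library. Farther out, CCDC74A stood at 0.10 and MGAT5 at -0.19.

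SLITRK1 (chr13:83877205-83882474), printed above with its GC-poor upstream bases, went from 20.8, 26 and 24.7 CPM to 5.33, 8.2 and 6.15 CPM. Every co-expression library was lower by a wide margin, and the fall was 1.82 ± 0.30 (edgeR adjusted p = 9.06e-06). RUNX1T1, the transcriptional corepressor gene that t(8;21) fuses to RUNX1, fell from 26.3, 24.6 and 24.7 CPM to 14, 5.97 and 9.56 CPM (log2 -1.34 ± 0.26, adjusted p = 0.000511). Co-expression replicate 1 was the highest of its group and was below all AF4-MLL libraries. Among the other kept falls, chosen after their values were seen, were TMEFF2, a transmembrane protein with follistatin-like domains (log2 -0.90), SLC16A7, a monocarboxylate transporter (-1.35), and HNF4A, a nuclear receptor of liver and kidney epithelium (-1.76). SLC16A7 and HNF4A did not pass without AF4-MLL replicate 1 (adjusted p = 0.085 and 0.185), nor TMEFF2 without AF4-MLL replicate 3 (0.0528). SLC16A7 and HNF4A were each called in 4 of the 6 fits that left out 1 library. The kidney marker list described above contained 0 called genes.

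Next to the shifted end of chromosome 22, a host gene of let-7 microRNAs rose while its block stood at -0.07 on the log2 scale. MIRLET7BHG (chr22:46085997-46113928) had 16.4, 18.8 and 10 CPM in AF4-MLL cells and 36.7, 32.8 and 40.3 CPM in co-expression cells. The groups did not overlap, which the rule for naming the gene required, and the rise was 1.32 ± 0.22 (edgeR adjusted p = 1.61e-05). The long non-coding RNA gene PRR34-AS1, close to it, rose by 2.20 ± 0.36 (adjusted p = 9.06e-06), from 6.58, 5.79 and 0 CPM to 22.7, 18.6 and 17.1 CPM. Of their neighbours, LINC00899 stood at 0.80, PRR34 at -0.26 and PPARA at 0.02 on the log2 scale. let-7 microRNAs repress targets through their seed, bases 2 to 8, which is in capitals in the 2 let-7 members that the host gene contains (RefSeq, GRCh38.p14).
hsa-let-7a-5p: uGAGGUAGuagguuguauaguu
hsa-let-7b-5p: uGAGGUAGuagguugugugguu
Both share the seed GAGGUAG. The counts are for the host gene's DNA, and microRNA levels were not measured.

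Some of the largest differences were at genes with few counts, most of them with no RefSeq position. AL121672.1 had 2, 0 and 2 counts in AF4-MLL cells and 19, 17 and 15 in co-expression cells, a ratio of 11.3 with an exact 95% interval of 4.15 to 43. AC009336.1 had 20, 7 and 13 against 0, 1 and 2 counts, and AC010890.1 had 15, 10 and 14 against 2, 0 and 1. Both fell with ratios near each other, 15.1 (exact 95% interval 4.79 to 76.1) and 14.7 (4.66 to 74.2). LINC01324, a long non-coding RNA gene on chromosome 3, had 12, 0 and 3 counts against 0, 0 and 0. AF4-MLL replicate 2 was thus level with the co-expression libraries, and no size of the fall is given. The call of LINC01324 was lost without AF4-MLL replicate 1, which held most of its counts (edgeR adjusted p = 0.327). AC092718.7 rose from 6.03, 4.34 and 3.85 CPM to 16.7, 27.6 and 19.8 CPM (log2 2.07, adjusted p = 9.06e-06), and AC023908.3 rose by 0.94 (adjusted p = 0.00124, and 0.0655 without AF4-MLL replicate 1). By gene type, calls made up 1.33% of 13972 protein coding genes and 1.36% of 1026 long non-coding RNA genes, both near the share over all tested genes.

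Day 28 gave the same contrast in 6 other libraries. By the study's account the cells were induced once and then followed to day 28. These libraries are therefore a later sampling and not an independent repeat of the comparison. On that day 299 genes (1.69%) were called. Of the 226 day 3 calls, 212 (93.8%) had the same sign on day 28 and 71 were also called in that direction. All 20 strongly shifted blocks were called again with the same sign. Inside those blocks all 104 calls kept their sign, and 44 (42.3%) were called again. Of the 100 calls with a position outside them, 88 kept their sign and 18 (18%) were called again. Calls in 1 block are not separate cases, and the same-sign share over all tested genes is not given here. The ratio of co-expression to AF4-MLL counts was 1.40 on day 3 and 1.43 on day 28 in the chromosome 15 stretch, 0.713 and 0.737 in the chromosome 17 stretch, and 0.805 and 0.782 in the chromosome 1 stretch. Of the 42 genes kept in the test with the neighbourhood scaling, which include genes without a position, 38 had the same sign and 16 were called again. LYPD1 fell by 2.58 on day 28 (edgeR adjusted p = 0.000289), SLITRK1 by 1.34 (0.000535) and RUNX1T1 by 1.60 (1.3e-06). MIRLET7BHG rose by 1.13 (0.000205) and PRR34-AS1 by 1.51 (0.00137).

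Several other differences were nearer to 0 on day 28. KMT2A fell by 0.45 (edgeR adjusted p = 0.0295), with 93.99 ± 9.53 CPM in AF4-MLL and 67.38 ± 10.9 CPM (SD, n = 3) in co-expression cells. DNAJB6 differed by 0.41 (adjusted p = 0.069), CRELD2 by -0.66 (0.0176), KDM6B by -0.33 (0.412) and ESRRG by -0.63 (0.246). A further 14 of the 226 had the opposite sign, and 0 of these were called on day 28. SATL1, at -1.61 on day 3 (adjusted p = 0.081 without AF4-MLL replicate 1), stood at 0.28 on day 28 (adjusted p = 0.82). The change of the difference between the days was tested as an interaction, which called 0 of 17660 genes in edgeR, with 892 at an unadjusted p under 0.05 where 5% of the tested genes is 883. The lowest adjusted p of that test among the day 3 calls was 0.559, so no single gene was shown to differ between the days. Of the 309 blocks, 1 (0.324%) was called in that test.

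**Figure D4:**
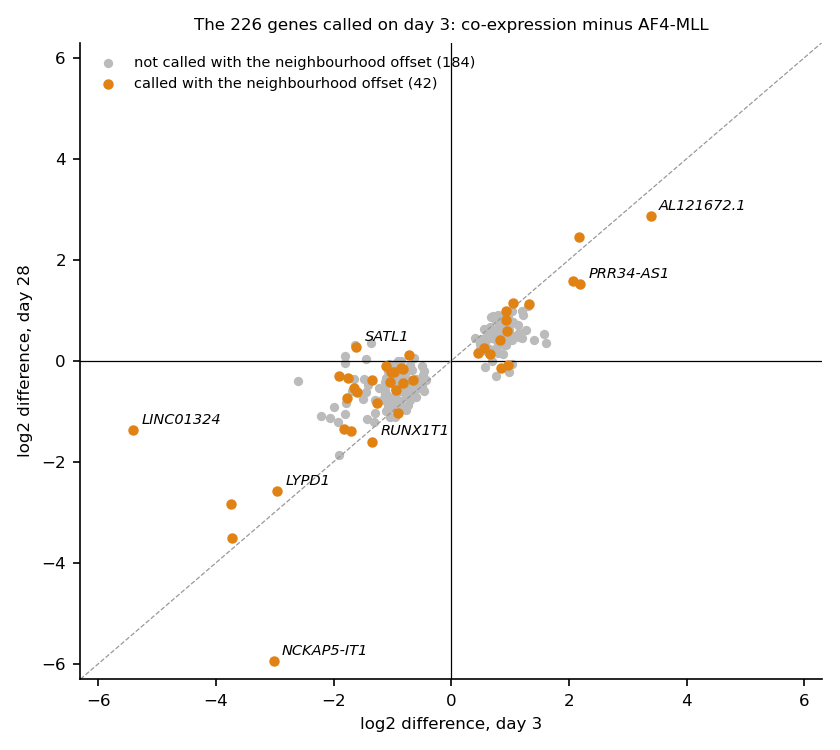
Log2 difference of co-expression over AF4-MLL cells on day 3 (horizontal axis) and day 28 (vertical axis) for the 226 genes called on day 3, with orange for the 42 that kept the call with the neighbourhood scaling and grey for the other 184. Of the points, 212 have the same sign on both axes. Genes without a position were not scaled by neighbours.

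The gene lists followed the biology of the fusions and of stress. Called members of a list are to be read beside the 1.28% called over all tested genes. Among 19 tested genes of the MLL complex and the fused genes KMT2A was the only call, and the scaffold MEN1 stood at -0.23 (edgeR adjusted p = 0.522). Among 19 genes of the super elongation and DOT1L complexes, 1 was called. It was ELL3, an elongation factor on chromosome 15, with 17, 28.9 and 27 CPM in AF4-MLL cells and 43.3, 30.6 and 39.6 CPM in co-expression cells. ELL3 rose by 0.74 ± 0.20 (adjusted p = 0.0265), did not pass with the neighbourhood scaling, and had an adjusted p of 0.477 without AF4-MLL replicate 1. It was called in 3 of the 6 fits that each left out 1 library. Of the 28 genes listed as targets of MLL fusions 27 were tested and 0 were called, with a median log2 of 0.03 beside 0.0057 over all tested genes. They ran from -0.83 at MYB to 0.39 at RUNX2, and the leukaemia-linked factors HOXA9 and MEIS1 stood at 0.23 (adjusted p = 0.665) and 0.19 (adjusted p = 0.617).

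MIF, a secreted cytokine, was the only call among the 4 tested genes of the list of MIF and its receptors. Its levels were 36.7, 53.5 and 40.1 CPM in AF4-MLL cells and 50.7, 63.4 and 68.3 CPM in co-expression cells. The groups overlapped, since AF4-MLL replicate 2 was above co-expression replicate 1. The rise was 0.56 ± 0.16 (edgeR adjusted p = 0.0377) and was called in 6 of 16 other settings, with an adjusted p of 0.362 without AF4-MLL replicate 1. On day 28 the difference was 0.23 (adjusted p = 0.567).

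Among 26 genes of the ER stress response 2 were called, CRELD2 and DERL2, the latter a channel component of ER-associated degradation. Over all tested genes 1.28% were called. DERL2, in the chromosome 17 stretch, fell from 36.7, 46.3 and 47.8 CPM to 22.7, 26.8 and 27.3 CPM (log2 -0.73 ± 0.19, edgeR adjusted p = 0.018), with an adjusted p of 0.183 without AF4-MLL replicate 3. DERL2 was called in 2 of the 6 fits that each left out 1 library. CRELD2 and DERL2 both lay in lower stretches of neighbours. The median of the list was 0.00, HSPA5, the main ER chaperone, stood at -0.02 (adjusted p = 0.973), and XBP1, a transcription factor of the pathway, at 0.62 (adjusted p = 0.161). Among 17 tested targets of ATF4, the factor of the integrated stress response, 1 was called. ATF3, a stress-induced transcription factor in the chromosome 1 stretch, fell from 38.9, 43.4 and 42.4 CPM to 30, 25.4 and 20.5 CPM (log2 -0.69 ± 0.19, adjusted p = 0.0312, and 0.241 without co-expression replicate 3). ATF3 was called in 1 of the 6 fits that each left out 1 library.

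The remaining lists held a single call. MX1, an interferon-induced GTPase, fell by 1.49 ± 0.42 (edgeR adjusted p = 0.0413), from 13.2, 10.1 and 9.25 CPM to 2, 2.98 and 6.83 CPM, and was the only call among 13 tested interferon genes. MX1 was called in 1 of the 6 fits that each left out 1 library, with an adjusted p of 0.319 without AF4-MLL replicate 1. Of 17 heat shock genes, 17 AP-1 genes, 22 genes of p53 and the G1 phase and 19 tested adhesion genes, 0 were called, and their medians were 0.10, 0.01, 0.00 and -0.19. With a background of 1.28% called, 0 calls in a list of this size is not a result about the list.

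**Figure D5:**
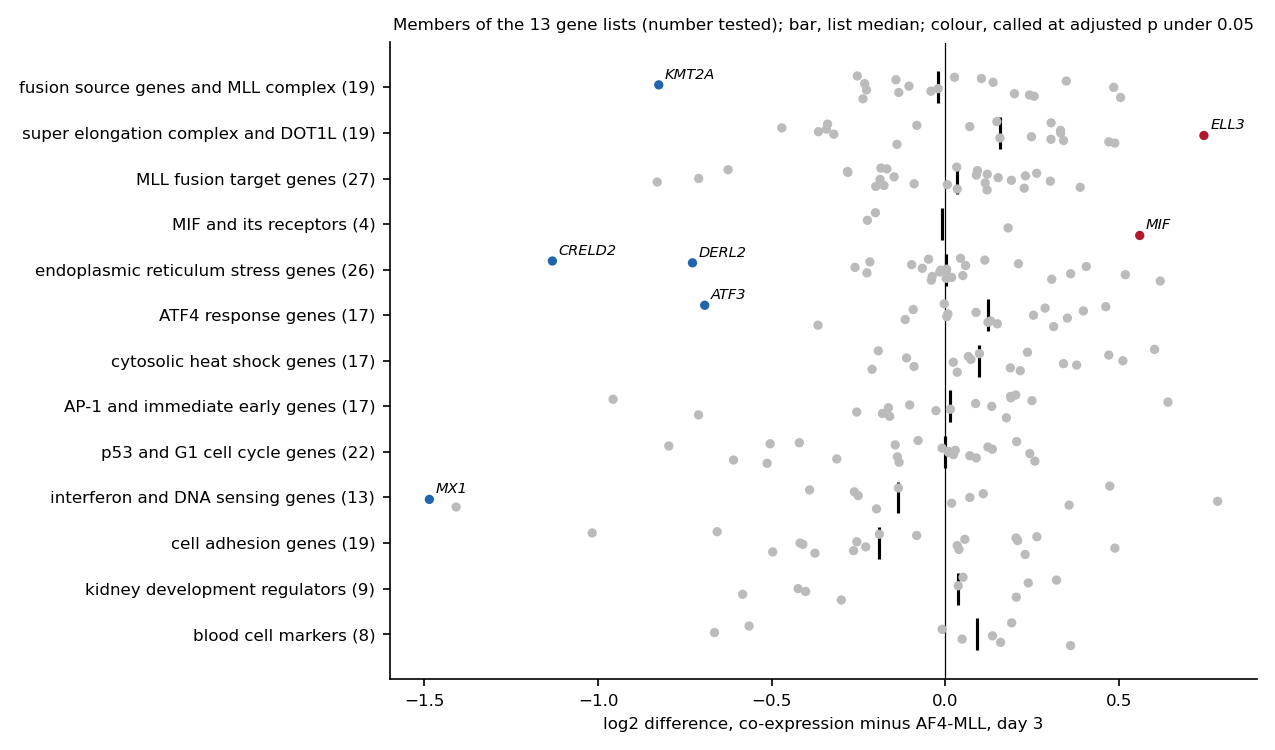
Log2 difference of co-expression over AF4-MLL cells on day 3 (horizontal axis) for the tested members of 13 gene lists (vertical axis), with a bar for each list's median and colour for called genes. The medians lie between -0.19 and 0.16, and 7 lists hold 0 called genes.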

How the data were processed

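Nuclei of HEK293T cells were treated with a Nextera transposase, and the authors deposited 1 table of raw counts, whole numbers of reads per gene for 54425 genes in 18 libraries. Per the labels, GRCh38, bcl2fastq, Bowtie2 and HTSeq were used in the submitters' processing. Versions, the annotation, the region counted per gene, duplicate removal, multiple mapping and the shift to the insertion site are not given in the sources used here, and any of them could change the count of a gene with copies or overlaps. Reads of overlapping genes on opposite strands cannot be separated, since the assay is not stranded.

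All 18 libraries (6 groups of 3) were fitted with edgeR 4.0.16 in R 4.3.3, by quasi-likelihood tests with TMM scaling. Low genes were removed by filterByExpr (at least 10 counts, 15 in total), and p-values were adjusted over 17660 genes. CPM values use TMM-scaled totals, and the biological coefficient of variation was 7.48%. Chromosome shares were tested with limma 3.58.1. Symbols were matched to RefSeq GRCh38.p14 for position and type (35414 matched, 1129 by synonym). The last block of a chromosome held at least 25 genes, and the neighbourhood scaling used the other genes of the block plus 0.5. It left genes without a position unscaled. A ratio of summed counts has an exact conditional binomial interval of 95%, and it covers counting error only.

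The 12 genes per direction with the smallest p-values, a mean of at least 10 counts and no overlap between groups were named, with all called list members, the first members of lists without calls, up to 3 called genes of a block and genes near 0 counts in one group. ALG12, SNORD3A, HOXA9, MEIS1, MYB, RUNX2, XBP1, SATL1, neighbours of other genes and further calls kept by the neighbourhood scaling were chosen after their values were seen. Members and lists were chosen with earlier results of these data known. Alternatives were DESeq2 1.42.0, other scalings and filters, the study's thresholds, blocks of 25 or 100 genes, leaving out each library and a replicate block. The procedure was tested on simulated data with 200 changed genes.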

Additional observations from a re-analysis of the deposited data

Results flagged for a closer look

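One block of neighbouring genes differed between the days by a test of the change itself. It runs from RNA5-8SN4 to DGCR6L on chromosome 22 and holds 50 tested genes. On day 3 it was lower in co-expression cells by 0.26 ± 0.0336 on the log2 scale (edgeR adjusted p = 4.64e-10), with 43 of the 50 genes lower. On day 28 the difference was -0.07 ± 0.0326 (adjusted p = 0.114). The change between the days was 0.20 ± 0.0468 (adjusted p = 0.0217), 1 of 309 blocks (0.324%).

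The libraries show where the values lay. On day 3 the block had 1502, 1432 and 1549 CPM in AF4-MLL cells, 1257, 1267 and 1230 CPM in co-expression cells and 1309, 1275 and 1351 CPM in MLL-AF4 cells. On day 28 it had 1330, 1359 and 1342 CPM in AF4-MLL cells, 1255, 1320 and 1280 CPM in co-expression cells and 1604, 1486 and 1517 CPM in MLL-AF4 cells. AF4-MLL cells on day 3 were above both other settings, and on day 28 the mean of AF4-MLL cells was 1344 CPM and that of co-expression cells 1285 CPM. The block includes ribosomal RNA genes, whose copies share reads.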

How the results depend on the processing

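The day 3 count of 226 genes (85 higher, 141 lower) fell to 87 (25 higher, 62 lower) with library totals as the only scaling, to 47 (19 and 28) with the neighbourhood scaling and to 36 (12 and 24) with DESeq2's Wald test, all 36 among the 226. Without a filter it was 107 (61 and 46), and with a mean of at least 30 counts 151, with 48 higher. The study's thresholds on the same fit gave 316 genes, 232 of them lower, and shared 88 with the 226. Leaving out 1 library gave 86 to 179 calls (33 to 74 higher, 50 to 105 lower), with 86 without AF4-MLL replicate 1 or replicate 3, 133 without co-expression replicate 2 and 99 without co-expression replicate 3. The day 28 count of 299 was 81, 38 and 33 with library totals, the neighbourhood scaling and DESeq2, and 103 to 200 without 1 library (103 without co-expression replicate 1, 122 without co-expression replicate 2, 125, 151 and 190 without AF4-MLL replicates 2, 3 and 1). The 3 called chromosomes became 13 without the 1% of genes with the highest counts and 2 to 4 without 1 library. The 86 called blocks became 133 at 25 genes, 48 at 100 genes, 18 with library totals and 71 to 84 without 1 library. SNORD3A, at -0.42, turned to 0.025 with the neighbourhood scaling. The causes were not tested.

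A replicate block gave 218 calls on day 3 (83 higher, 135 lower, 211 shared), 270 on day 28, 0 in the interaction, 3 chromosomes and 86 blocks. No shared deviation of same-numbered day 3 libraries was seen (correlations 0.0143, 0.00169 and -0.0494). With so few libraries this cannot show whether they were prepared together, and the labels do not say. How the depth of a gene bears on its call was not tested.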

Other observations

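With the neighbourhood scaling 5 genes passed that were not among the 226. WNT3A, a secreted signalling protein, TUBB4B, a beta tubulin, TRMU, a modifier of mitochondrial transfer RNA, and ZNF692, a zinc finger protein, were higher in co-expression cells relative to their neighbours, and IGDCC3 was lower. WNT3A and ZNF692 lie in the lower stretch of chromosome 1 and TUBB4B in that of chromosome 9. Without the scaling these 5 genes were not called, so they are shown to differ from their neighbours only. Of the calls kept with that scaling and called again on day 28, TCTEX1D1 rose by 1.06 on day 3 and by 1.14 on day 28, and RIPPLY2, a somite segmentation repressor, rose by 0.93 and by 0.98. Both were chosen after their values were seen, and their day 3 edgeR adjusted p was 0.101 without AF4-MLL replicate 1 and 0.186 without AF4-MLL replicate 3. TCTEX1D1 was called in 3 and RIPPLY2 in 4 of the 6 fits that left out 1 library. Of 37 mitochondrial genes 36 were tested and 0 were called.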
